A study of Mus musculus with 24 samples.

Results

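Myostatin, the activins and their binding proteins were followed as a group of 8 genes: the ligand genes Mstn, Gdf11, Inhba and Inhbb, the inhibin subunit gene Inha, and the follistatin genes Fst, Fstl1 and Fstl3. Each was read from the array probe set that the platform annotation assigns to that gene alone. All 8 were found, each with 1 such probe set, among the 19938 genes that could be tested, and all 8 were followed whatever their values. Their mean signal over the 24 arrays lay at or above the lower quartile of gene means (6.34 log2 units), with Mstn the nearest to it at 6.44.

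Myostatin, encoded by Mstn, is a secreted protein of the TGF-beta family made by skeletal muscle that limits muscle growth, and GDF11, encoded by Gdf11, is its closest relative. Activin A and activin B are dimers of the subunits encoded by Inhba and Inhbb, and like myostatin they bind activin type II receptors and signal through Smad2 and Smad3, whereas BMP ligands signal through Smad1, Smad5 and Smad8. The inhibin alpha subunit, encoded by Inha, pairs with an activin subunit to form inhibins, which compete with activins for their receptors with the help of the co-receptor betaglycan (Tgfbr3). Follistatin, encoded by Fst, and the follistatin-like protein encoded by Fstl3 are secreted proteins that bind activins and myostatin and keep them from their receptors, and Fstl1 encodes a secreted glycoprotein that carries a follistatin domain but is more distantly related.

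The study asked whether the receptor tyrosine kinase MuSK shapes the response of muscle cells to bone morphogenetic protein 4 (BMP4) and whether myotubes and myoblasts differ in this. Total RNA of 24 mouse cultures was hybridised to Affymetrix whole-transcript arrays, 1 array per sample, and the values are log2 signals. The 8 groups of 3 arrays are MuSK-null myotubes with BMP4, MuSK-null myotubes without, wild-type myotubes with BMP4, wild-type myotubes without, and the same 4 combinations for myoblasts. BMP4 was given at 25 ng/ml for 8 h. Myoblasts were grown at 33 °C with interferon-γ, and myotubes were obtained from confluent myoblasts after 3 days in horse serum at 37 °C. Temperature and medium thus change with stage, so they cannot be told apart from differentiation in any comparison of myotubes with myoblasts. The BMP4-treated myoblasts had been kept without serum for 4 h beforehand, and for untreated myoblasts the labels do not say, so serum and BMP4 cannot be told apart in the myoblast responses. Myotubes were treated without serum deprivation, so a difference between the myotube and the myoblast response may hold both as well. Each genotype is 1 immortalised line, labelled MuSK-/- (MuSK-null) and H-2Kb-tsA58 (wild-type, after the transgene for a temperature-sensitive T antigen), so that genotype and line cannot be told apart. The labels call the arrays of a group biological replicates without saying whether they came from separate cultures, so the spread behind each p-value is that between arrays and may be technical. No count stands behind an array value, and the number of arrays limits the precision.

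Windows listed as promoters are shown for 3 of the 8 genes. Mstn and Inha both rose with differentiation in both lines, and Inha and Inhba both rose with BMP4 in all 4 settings. RefSeq (GRCm38.p6) promoter windows were matched by symbol for 7 of the 8 genes, all but Fst. The 250 bases before the listed start are printed 5′ to 3′, on the plus strand for all 3: Mstn at chr1:53061390-53061639, Inha at chr1:75507359-75507608 and Inhba at chr13:16011601-16011850. The Inha and Inhba windows lie inside the annotated gene, whose first base is 75507077 for Inha and 16004256 for Inhba. They precede a listed start further into the gene. The sequence before the first base of these genes was not searched. Capitals mark E-boxes, the motif CANNTG that muscle regulatory factors of the MyoD family bind.
Mstn: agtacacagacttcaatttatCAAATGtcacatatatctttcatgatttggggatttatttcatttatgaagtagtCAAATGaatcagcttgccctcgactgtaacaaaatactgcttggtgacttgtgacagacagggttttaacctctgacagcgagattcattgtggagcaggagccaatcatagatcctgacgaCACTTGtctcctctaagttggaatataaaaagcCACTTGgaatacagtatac
Inha: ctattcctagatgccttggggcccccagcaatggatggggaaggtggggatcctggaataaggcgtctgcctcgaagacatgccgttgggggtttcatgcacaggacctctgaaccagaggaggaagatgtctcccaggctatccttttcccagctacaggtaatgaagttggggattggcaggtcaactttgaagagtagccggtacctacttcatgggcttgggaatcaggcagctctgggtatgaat
Inhba: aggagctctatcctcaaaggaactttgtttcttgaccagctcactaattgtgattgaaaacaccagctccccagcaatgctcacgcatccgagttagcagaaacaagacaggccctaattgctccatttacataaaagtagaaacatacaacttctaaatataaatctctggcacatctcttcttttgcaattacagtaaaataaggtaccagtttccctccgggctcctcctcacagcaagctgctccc
The Mstn window holds 4 matches to CANNTG, 2 of CAAATG with their first base 229 and 174 bases before the start, and 2 of CACTTG at 52 and 19 bases. The Inha and Inhba windows hold 0, which says nothing of the sequence before either gene. CANNTG reads the same on both strands, and no 2 matches overlap. Of 32851 windows of this length 66.2% hold at least 1 match, so a match is common, and 3 of the 7 matched genes have one (Mstn, Gdf11 and Fstl3). GGCGCC, a GC-rich motif bound by BMP-activated Smads and also the same on both strands, was found in 9.6% of all windows and in 0 of the 7.

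Musk was checked first, since it tests the labels. Its probe set gave 11.17, 11.24 and 11.24 in untreated MuSK-null myotubes, against 12.72, 12.69 and 12.76 in untreated wild-type myotubes, a difference of -1.51 (SE 0.07, adjusted p = 5.68e-14), and -0.72 in untreated myoblasts. The groups did not overlap, but a clear signal was left in MuSK-null cells. The sources used here do not name the deleted exons, and the probe set may lie outside them, so the labels are checked only in part. The muscle identity of the cultures was clear from 8 skeletal muscle markers, whose mean signal per array was 12.87 to 13.02 in all myotubes. In myoblasts it was 10.29 to 10.70 in MuSK-null and 12.13 to 12.21 in wild-type cells. The mean of 7 fibroblast markers was 10.28 to 10.68 in MuSK-null and 9.11 to 9.28 in wild-type myotubes, and 9.44 to 9.56 in MuSK-null and 8.62 to 8.78 in wild-type myoblasts. The mean of 5 smooth muscle markers lay between 10.03 and 10.89 on all arrays, whereas those of 4 endothelial, 4 macrophage and 4 adipocyte markers lay between 5.95 and 6.46. The 2 measured Schwann cell markers averaged 6.72 to 7.21. In each myoblast group 1 array deviated together with 1 array of the other 3 (pairwise r of 0.42 to 0.54 over genes): array 2 of the BMP4-treated and of the untreated MuSK-null group, array 3 of the BMP4-treated and array 2 of the untreated wild-type group. They are the choice of 1 array per myoblast group with the highest mean correlation over probe sets without a listed gene. Only myoblast groups were searched. These 4 arrays are called the array set.

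**Figure D1:**
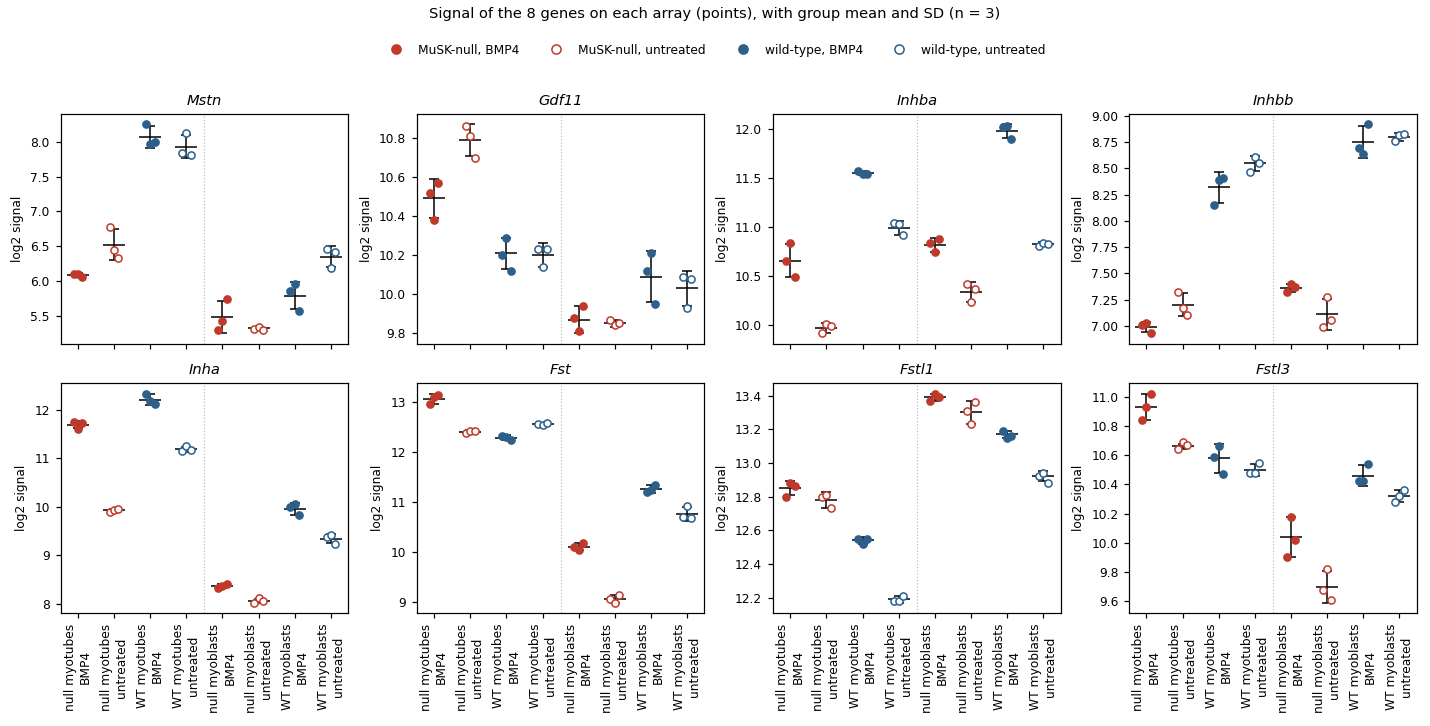
Log2 signal of the 8 genes on each of the 24 arrays; points are arrays, filled for BMP4 and open for untreated, red for MuSK-null and blue for wild-type; bars give the mean and SD of 3 arrays, and each panel has its own log2 axis. Inha spans 8.06 to 12.21 and Fst 9.07 to 13.07 between their lowest and highest group means, while Gdf11 spans 0.94 log2 units.

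Of the 8 genes, 4 to 6 were called with BMP4 in each setting. Inha and Inhba rose in all 4, Fst rose in 3 and fell in wild-type myotubes, and Mstn fell in 2. In MuSK-null myotubes 6 of the 8 were called, 4 higher and 2 lower, where 11.3% of the 19938 genes were called in either direction. In wild-type myotubes 4 were called, 3 higher and 1 lower, beside 8.77% of all genes. In MuSK-null myoblasts 4 were called, 4 higher and 0 lower, beside 8.42%. In wild-type myoblasts 5 were called, 4 higher and 1 lower, beside 11%. A call is a Benjamini-Hochberg adjusted p under 0.05 from limma over all 19938 genes. The median change of the 8 genes was 0.17, 0.11, 0.28 and 0.20 log2 units in these 4 settings, beside -0.01, 0.02, 0.02 and 0.00 for all genes. The 8 genes were not tested as a set.

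The inhibin alpha subunit gene Inha (Entrez gene 16322, probe set 10347669) had the largest response of the 8 in myotubes of both lines. It gave 11.75, 11.61 and 11.72 in BMP4-treated MuSK-null myotubes, against 9.90, 9.93 and 9.96 in untreated ones. In wild-type myotubes it gave 12.33, 12.19 and 12.12 with BMP4, against 11.16, 11.25 and 11.17 without. Every treated myotube array thus lay above every untreated one of its line. The rise was 1.76 log2 units (SE 0.07, 3.38-fold, adjusted p = 3e-14) in MuSK-null myotubes and 1.02 (SE 0.07, 2.03-fold, adjusted p = 4.15e-10) in wild-type ones. In MuSK-null myoblasts it gave 8.33, 8.37 and 8.41 with BMP4, against 8.02, 8.11 and 8.06 without. In wild-type myoblasts it gave 9.99, 10.05 and 9.82 with BMP4, against 9.37, 9.41 and 9.23 without. Here too the treated and untreated arrays did not overlap, and the rise was 0.31 (SE 0.07, adjusted p = 0.00413) for the MuSK-null line and 0.62 (SE 0.07, adjusted p = 5.49e-07) for the wild-type line. The order of the 8 group means ran from BMP4-treated wild-type myotubes (12.21) to untreated MuSK-null myoblasts (8.06). Only 1 pair of neighbours in it overlapped, BMP4-treated wild-type myoblasts and untreated MuSK-null myotubes (9.96 and 9.93).

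The activin A subunit gene Inhba (Entrez gene 16323, probe set 10403743) also rose with BMP4 in every setting. It gave 10.66, 10.84 and 10.49 in BMP4-treated MuSK-null myotubes, against 9.92, 10.01 and 9.99 in untreated ones. In wild-type myotubes it gave 11.57, 11.54 and 11.54 with BMP4, against 11.04, 11.03 and 10.92 without. The rises were 0.69 (SE 0.07, adjusted p = 3.13e-07) in MuSK-null and 0.56 (SE 0.07, adjusted p = 1.01e-05) in wild-type myotubes, without overlap. In MuSK-null myoblasts the values were 10.84, 10.75 and 10.88 with BMP4, against 10.42, 10.24 and 10.37 without. In wild-type myoblasts they were 12.02, 12.03 and 11.90 with BMP4, against 10.81, 10.84 and 10.83 without. Wild-type myoblasts showed the largest response, 1.16 (SE 0.07, 2.23-fold, adjusted p = 7.16e-11), beside 0.48 (SE 0.07, 1.4-fold, adjusted p = 5.41e-05) in MuSK-null myoblasts. BMP4-treated wild-type myoblasts thereby held the highest group mean of Inhba (11.98) and untreated MuSK-null myotubes the lowest (9.97). The mean of BMP4-treated MuSK-null myoblasts (10.82) overlapped with that of untreated wild-type myoblasts (10.83).

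Inhbb, which encodes the activin B subunit (Entrez gene 16324, probe set 10357155), was called in 0 of the 4 responses, although its change had an unadjusted p under 0.05 in 3 of them. The change was -0.21 (95% confidence interval -0.39 to -0.03, adjusted p = 0.155) in MuSK-null and -0.23 (-0.41 to -0.05, adjusted p = 0.12) in wild-type myotubes. In MuSK-null myoblasts it was 0.26 (0.08 to 0.44, adjusted p = 0.0714), with values of 7.32, 7.40 and 7.37 with BMP4 and 6.99, 7.27 and 7.06 without. This last change passed the threshold without the array set (0.32, adjusted p = 0.0326). In wild-type myoblasts it was -0.05 (-0.23 to 0.13, adjusted p = 0.885). Inhba and Inhbb thus differed in that Inhba was called in all 4 responses, though the 2 genes' responses were not tested against each other.

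Myostatin was called lower with BMP4 in MuSK-null myotubes and in wild-type myoblasts. Mstn (Entrez gene 17700, probe set 10346250) gave 6.10, 6.10 and 6.05 in BMP4-treated MuSK-null myotubes, against 6.77, 6.45 and 6.33 in untreated ones, a fall by 0.43 (SE 0.12, adjusted p = 0.0226). That call was lost when any 1 of 4 arrays was left out, namely untreated array 1 (adjusted p = 0.175) or BMP4-treated array 1, 2 or 3 (0.0528 to 0.0703). In wild-type myotubes, where Mstn was highest, the values were 8.25, 7.97 and 7.99 with BMP4 and 7.84, 8.12 and 7.81 without. These overlapped, and the change was 0.14 (95% confidence interval -0.12 to 0.40, adjusted p = 0.616). In MuSK-null myoblasts Mstn gave 5.30, 5.42 and 5.74 with BMP4 and 5.31, 5.34 and 5.30 without, a change of 0.17 (-0.09 to 0.42, adjusted p = 0.566). In wild-type myoblasts it gave 5.85, 5.95 and 5.57 with BMP4, against 6.46, 6.18 and 6.42 without, a fall by 0.57 (SE 0.12, adjusted p = 0.00244). The myoblast values of Mstn, from 5.30 to 6.46, lie around or below the lower quartile of gene means. So do its MuSK-null myotube values, 6.05 to 6.10 with BMP4 and 6.33 to 6.77 without. Untreated MuSK-null myoblasts, at a mean of 5.32, lay below the means there of Kdr (5.76) and Ptprc (5.80), markers of endothelial cells and macrophages. They lay above those of the macrophage marker Adgre1 (5.24) and the adipocyte marker Fabp4 (5.21). The Mstn signal was thus among those of markers of other cell types, called near background here, and a fall may not be visible in them. Differences and folds of Mstn that use these myoblasts may be limited by background, as may those that use MuSK-null myotubes. The within-group SD of Mstn, 0.17, was the largest of the 8 genes (median of all genes 0.11).

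Gdf11 (Entrez gene 14561, probe set 10373583) fell in 1 setting. In MuSK-null myotubes it gave 10.52, 10.38 and 10.57 with BMP4, against 10.86, 10.81 and 10.70 without, a fall by 0.30 (SE 0.07, adjusted p = 0.00644) that was not called without BMP4-treated array 2 (adjusted p = 0.0571). Its changes in the other 3 settings lay between 0.01 and 0.06, with adjusted p of 0.805 to 0.978.

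Follistatin, the main secreted antagonist of activins and myostatin, had the only response of the 8 that was called in both directions. Fst (Entrez gene 14313, probe set 10412260) gave 12.96, 13.10 and 13.14 in BMP4-treated MuSK-null myotubes, against 12.38, 12.42 and 12.43 in untreated ones, a rise of 0.66 (SE 0.07, 1.58-fold, adjusted p = 3.34e-07). In wild-type myotubes it gave 12.33, 12.31 and 12.24 with BMP4, against 12.57, 12.54 and 12.58 without, a fall by 0.27 (SE 0.07, adjusted p = 0.0145). The arrays of neither pair overlapped. The fall was not called without untreated array 1 or 3 or BMP4-treated array 3 (adjusted p = 0.0504 to 0.0708). In MuSK-null myoblasts Fst gave 10.11, 10.04 and 10.18 with BMP4, against 9.07, 8.99 and 9.14 without, a rise of 1.04 (SE 0.07, 2.06-fold, adjusted p = 2.4e-10). In wild-type myoblasts it gave 11.20, 11.24 and 11.35 with BMP4, against 10.71, 10.93 and 10.68 without, a rise of 0.49 (SE 0.07, 1.4-fold, adjusted p = 1.93e-05). Its 8 groups did not overlap between any neighbours in their order, from BMP4-treated MuSK-null myotubes (13.07) to untreated MuSK-null myoblasts (9.07). The MuSK-null line thus held both ends of that order.

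The other follistatin genes were each called in 2 settings. Fstl3 (Entrez gene 83554, probe set 10364494) rose by 0.27 (SE 0.07, adjusted p = 0.0175) in MuSK-null myotubes, with 10.84, 10.93 and 11.02 in treated and 10.64, 10.69 and 10.67 in untreated ones. That call was lost without untreated array 1 or BMP4-treated array 2 or 3 (adjusted p = 0.0515 to 0.0967). In MuSK-null myoblasts it rose by 0.33 (SE 0.07, adjusted p = 0.0039), where a fit on these 2 groups alone did not call it (adjusted p = 0.0844). In wild-type cells its changes were 0.07 in myotubes and 0.14 in myoblasts (adjusted p = 0.668 and 0.332). Fstl1 (Entrez gene 14314, probe set 10435641) had the reverse pattern of calls. It rose by 0.36 (SE 0.05, adjusted p = 3.12e-05) in wild-type myotubes, with 12.55, 12.52 and 12.55 in treated and 12.18, 12.18 and 12.21 in untreated ones. The rise in wild-type myoblasts was 0.25 (SE 0.05, adjusted p = 0.00115). In MuSK-null cells its changes were 0.07 in myotubes and 0.09 in myoblasts (adjusted p = 0.545 and 0.394). By the interaction contrasts, the Fstl3 response was not called different between lines in myotubes (0.19, adjusted p = 0.434) or myoblasts (0.19, adjusted p = 0.575). The Fstl1 response was called different in myotubes (-0.29, adjusted p = 0.0238) but not in myoblasts (-0.16, adjusted p = 0.413). A fit on the myotube groups alone did not call it (adjusted p = 0.0638).

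**Figure D2:**
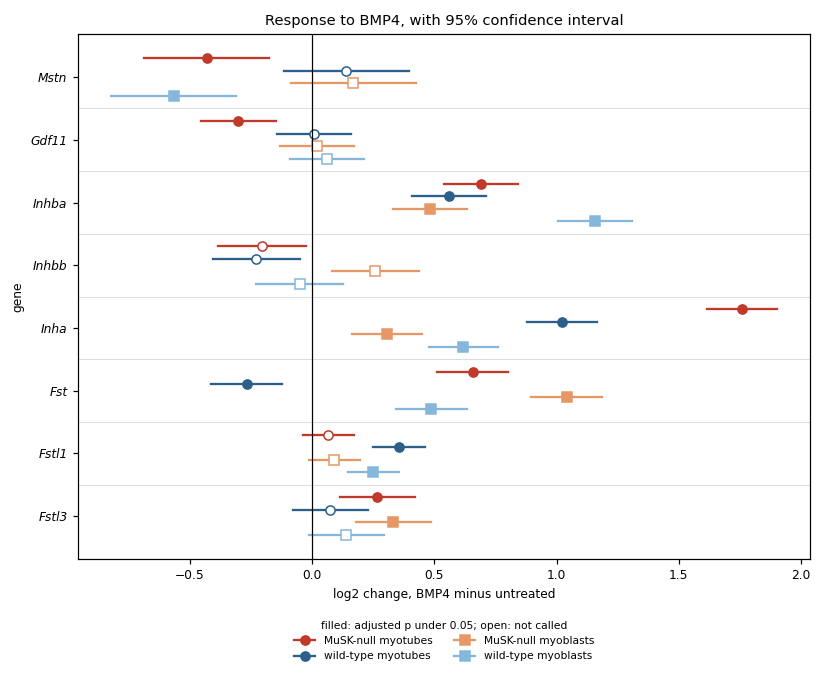
Log2 change with BMP4 (treated minus untreated) of each gene in the 4 settings, as points with 95% confidence intervals from the limma fit; filled points have an adjusted p under 0.05. Inha and Inhba lie right of 0 in all 4 settings (Inha up to 1.76 in MuSK-null myotubes), and Fst lies left of 0 only in wild-type myotubes (-0.27).

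Whether the 2 lines differed in their response was tested with interaction contrasts. In myotubes 3 of the 8 genes differed, where 3.21% of all genes did. The MuSK-null response exceeded the wild-type response by 0.93 (SE 0.10, adjusted p = 3.06e-06) for Fst and by 0.74 (SE 0.10, adjusted p = 4.58e-05) for Inha. For Fstl1 the difference was -0.29 (SE 0.07, adjusted p = 0.0238), a call lost without any 1 of 7 of the 12 arrays (adjusted p = 0.0509 to 0.0745): arrays 1 and 2 of both untreated groups, BMP4-treated wild-type arrays 1 and 3, and BMP4-treated MuSK-null array 1. The Fstl1 call was also lost in a fit on the compared groups alone (adjusted p = 0.0638). For Mstn the difference in myotubes was -0.57 (95% confidence interval -0.93 to -0.21, adjusted p = 0.0848).

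In myoblasts 3 of the 8 genes differed between the lines, where 2.39% of all genes did. For Inhba the MuSK-null response minus the wild-type response was -0.67 (SE 0.10, adjusted p = 0.000334), and the MuSK-null response of Fst was higher by 0.55 (SE 0.10, adjusted p = 0.00167). For Mstn the difference was 0.73 (SE 0.17, adjusted p = 0.0209), which sets the wild-type fall against MuSK-null myoblasts whose Mstn signal was near background. The Mstn call was lost without the array set (adjusted p = 0.0799) and without any 1 of 4 arrays (0.0599 to 0.0751), namely untreated wild-type array 1 or 3 or BMP4-treated array 3 of either line. Fst was thus the one gene of the 8 called in both stages, in both with the larger value in MuSK-null cells.

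The response was also compared between stages within each line. In MuSK-null cells 4 of the 8 genes differed (6.16% of all genes). The myotube response of Inha exceeded the myoblast response by 1.45 (SE 0.10, adjusted p = 1.15e-09), whereas those of Mstn (-0.60, SE 0.17, adjusted p = 0.0413), Inhbb (-0.46, SE 0.12, adjusted p = 0.0209) and Fst (-0.39, SE 0.10, adjusted p = 0.0175) were lower. In wild-type cells 4 differed (3.42% of all genes). The myotube response was higher for Mstn (0.71, SE 0.17, adjusted p = 0.0213) and Inha (0.40, SE 0.10, adjusted p = 0.0174) and lower for Fst (-0.76, SE 0.10, adjusted p = 4.39e-05) and Inhba (-0.60, SE 0.10, adjusted p = 0.00101). These calls held without any single array for Inha in MuSK-null cells and for Fst and Inhba in wild-type cells. In MuSK-null cells the Mstn call was lost without any 1 of 9 of the 12 arrays, all but BMP4-treated myoblast arrays 1 and 2 and untreated myotube array 3 (adjusted p up to 0.138). That for Inhbb was lost without untreated myoblast array 1 or 3, untreated myotube array 1 or BMP4-treated myotube array 3 (up to 0.0744), and that for Fst without untreated myoblast array 2, BMP4-treated myoblast array 3 or BMP4-treated myotube array 1 (up to 0.063). In wild-type cells the Mstn call was lost without untreated myoblast array 1 or 3, BMP4-treated myoblast array 3, untreated myotube array 1 or 3 or BMP4-treated myotube array 1 (up to 0.0709). That for Inha was lost without untreated myoblast array 2, BMP4-treated myoblast array 3, or array 1 of the untreated or the BMP4-treated myotubes (up to 0.0608). It was also lost in a fit on the compared groups alone (0.0944). After centring each array on its median, Mstn, Inhbb and Fst were not called in MuSK-null cells (0.0598, 0.0519 and 0.0558). Without the array set, Mstn was not called in MuSK-null (adjusted p = 0.0517) or wild-type cells (0.0579), nor was Inha in wild-type cells (0.12), whereas Gdf11 was called in MuSK-null cells (-0.35, adjusted p = 0.048, against -0.32 and 0.0736 with all arrays). Whether the stage difference itself differed between lines was called for Mstn (-1.31, SE 0.25, adjusted p = 0.00331), Inhba (0.81, SE 0.15, adjusted p = 0.00208) and Inha (1.05, SE 0.14, adjusted p = 6.2e-05), where 2.5% of all genes were called.

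Between the lines, the activin and inhibin subunit genes were lower in MuSK-null cells in all 4 settings, and Fstl1 was higher in all 4. In untreated myotubes 6 of the 8 were called between lines, 2 higher and 4 lower in MuSK-null cells, beside 37.4% of all genes. In untreated myoblasts 7 were called, 1 higher and 6 lower, beside 31.3%. With BMP4, 8 were called in myotubes, 4 higher and 4 lower, beside 36.3%, and 7 in myoblasts, 1 higher and 6 lower, beside 29.7%. The median difference of the 8 genes was -0.83 in untreated myoblasts, beside -0.01 for all genes, and -0.59 in untreated myotubes, beside 0.04. The skeletal muscle markers moved with the myoblast differences, with 7 of 8 lower in untreated MuSK-null myoblasts (median difference -1.95), and 5 of 8 were lower in untreated myotubes (-0.29). Of the 7 fibroblast markers, 5 were higher in untreated MuSK-null myoblasts (median 0.79) and 6 in untreated MuSK-null myotubes (1.58). Their part in the differences was not tested, and in bulk RNA fewer cells that make a transcript and less transcript per cell cannot be told apart.

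Among the subunit genes, the lines stood widest apart for Inhbb in untreated cells. Untreated MuSK-null myotubes gave 7.32, 7.17 and 7.10, against 8.47, 8.61 and 8.55 in untreated wild-type ones, a difference of -1.35 (SE 0.09, 2.55-fold lower, adjusted p = 1.15e-11). In untreated myoblasts the Inhbb difference was -1.70 (SE 0.09, 3.24-fold lower, adjusted p = 1.89e-13), with 6.99, 7.27 and 7.06 in MuSK-null against 8.76, 8.82 and 8.83 in wild-type cells. The 12 MuSK-null arrays lay between 6.93 and 7.40 and the 12 wild-type arrays between 8.15 and 8.92, so that neither stage nor BMP4 closed the gap. The Inha difference was -1.26 (SE 0.07, adjusted p = 7.02e-13) in untreated myotubes and -1.28 (SE 0.07, adjusted p = 5.39e-13) in untreated myoblasts. With BMP4 it was -0.52 (adjusted p = 1.57e-06) in myotubes and -1.59 (adjusted p = 9.63e-15) in myoblasts. The Inhba difference was -1.02 (2.03-fold lower, adjusted p = 7.82e-11) in untreated myotubes and -0.48 (1.4-fold lower, adjusted p = 1.22e-05) in untreated myoblasts.

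Mstn was lower in MuSK-null cells in 3 of the 4 settings. The difference was -1.98 (SE 0.12, 3.95-fold lower, adjusted p = 7.64e-12) in BMP4-treated myotubes, -1.41 (SE 0.12, 2.66-fold lower, adjusted p = 2.46e-09) in untreated myotubes and -1.04 (SE 0.12, adjusted p = 4.01e-07) in untreated myoblasts, where the MuSK-null signal was near background. The MuSK-null myotube values, 6.05 to 6.77, lay around or below the lower quartile of gene means, so the myotube folds may be limited by background too. In BMP4-treated myoblasts the arrays of the lines overlapped, and the difference was -0.30 (95% confidence interval -0.56 to -0.05, adjusted p = 0.0685). It was called without array 3 of MuSK-null (0.0135) or of wild-type cells (0.0206), and after quantile normalization (0.0255). Its near relative Gdf11 went the other way in myotubes, where it was higher in MuSK-null cells by 0.59 (SE 0.07, adjusted p = 6.23e-07) untreated and by 0.28 (SE 0.07, adjusted p = 0.00343) with BMP4. In myoblasts the Gdf11 difference was -0.22 with BMP4 (adjusted p = 0.0259), a call lost in a fit on these groups alone (0.0893) and without array 1 or 2 of either line (adjusted p = 0.0563 to 0.155). Untreated, its difference there was -0.18 (adjusted p = 0.0719, and 0.0393 without the array set).

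Among the antagonists, Fst differed between lines in myoblasts and, with BMP4, in myotubes. The difference was -1.70 (SE 0.07, 3.26-fold lower in MuSK-null cells, adjusted p = 3.45e-15) in untreated myoblasts and -1.15 (SE 0.07, adjusted p = 5.32e-12) with BMP4. In untreated myotubes the difference was -0.15 (95% confidence interval -0.30 to -0.01, adjusted p = 0.0928, and 0.028 without the array set, which leaves the myotube arrays as they are). With BMP4 it was 0.77 (SE 0.07, adjusted p = 4.64e-09) higher in MuSK-null myotubes. For Fstl3 the difference in myoblasts was -0.61 untreated (adjusted p = 5.06e-07) and -0.42 with BMP4 (adjusted p = 8.89e-05). In myotubes it was 0.16 untreated (adjusted p = 0.0946, and 0.0418 without the array set) and 0.35 with BMP4 (adjusted p = 0.000467). Fstl1 was higher in MuSK-null cells by 0.59 and 0.38 in untreated myotubes and myoblasts and by 0.30 and 0.22 in treated ones, each called.

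**Figure D3:**
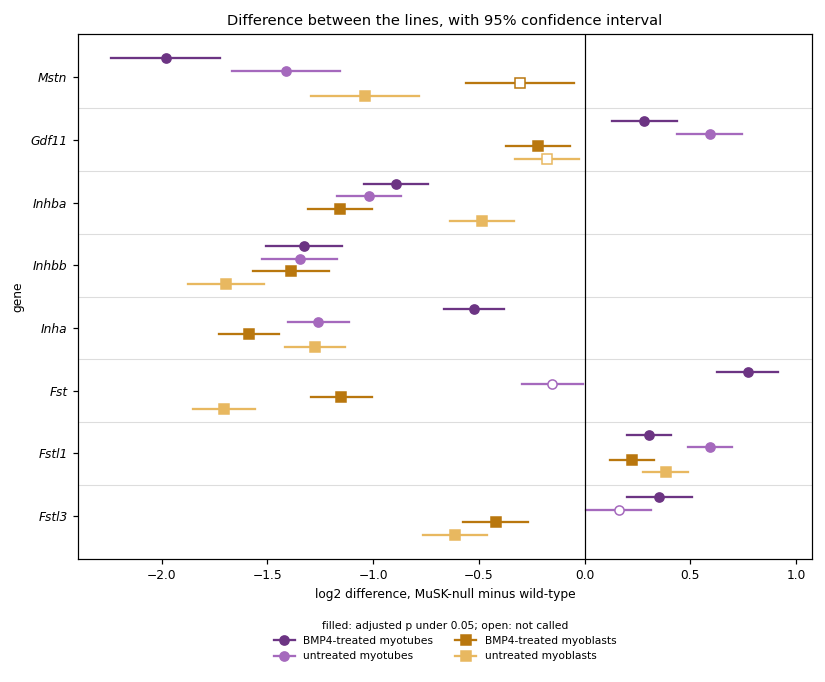
Log2 difference between the lines (MuSK-null minus wild-type) of each gene in the 4 matched settings, as points with 95% confidence intervals from the limma fit; filled points have an adjusted p under 0.05. Mstn, Inhba, Inhbb and Inha lie left of 0 throughout, Fstl1 right of 0 throughout (0.22 to 0.59), and Fst runs from -1.70 in untreated myoblasts to 0.77 in BMP4-treated myotubes.

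Inha, Fst and Mstn rose and Fstl1 fell with differentiation in both lines, where temperature and medium changed with stage. Among untreated MuSK-null cells 7 of the 8 genes were called, 5 higher and 2 lower in myotubes than in myoblasts, beside 41.6% of all genes. Among untreated wild-type cells 6 were called, 4 higher and 2 lower, beside 45%. With so many genes called at large, the count alone says little about these 8. Fst rose by 3.34 (SE 0.07, 10.1-fold, adjusted p = 5.23e-21) in MuSK-null and by 1.79 (SE 0.07, 3.45-fold, adjusted p = 9.25e-16) in wild-type cells. Inha rose by 1.87 (SE 0.07, 3.66-fold, adjusted p = 2.39e-16) in MuSK-null and by 1.85 (SE 0.07, 3.62-fold, adjusted p = 3.88e-16) in wild-type cells. Mstn rose by 1.20 (SE 0.12) in MuSK-null cells, from myoblasts with a signal near background, and by 1.57 (SE 0.12, 2.97-fold) in wild-type cells. Fstl1 fell by 0.52 in MuSK-null and by 0.73 in wild-type cells (SE 0.05 each). All these changes exceeded the spread between arrays, without overlap.

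Other genes changed in 1 line or by different amounts. Gdf11 rose by 0.94 (SE 0.07, adjusted p = 2.18e-10) in MuSK-null cells and changed by 0.17 (adjusted p = 0.069) in wild-type cells. Fstl3 rose by 0.96 (SE 0.07, adjusted p = 1.67e-10) in MuSK-null and by 0.19 (SE 0.07, adjusted p = 0.0452) in wild-type cells, where the call was lost without any 1 of the 6 arrays (adjusted p = 0.0552 to 0.139). Inhba fell by 0.37 (SE 0.07, adjusted p = 0.000195) in MuSK-null cells and changed by 0.17 (adjusted p = 0.0659) in wild-type cells. Inhbb changed by 0.09 (adjusted p = 0.459) in MuSK-null cells and fell by 0.26 (SE 0.09, adjusted p = 0.0174) in wild-type cells, a call lost without untreated myoblast array 3 or myotube array 1 (adjusted p = 0.0528 and 0.0756) and under quantile normalization (0.0824).

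The change with differentiation differed between lines for 6 of the 8 genes, where 29.1% of all genes differed. The MuSK-null change exceeded the wild-type change by 1.55 (SE 0.10, adjusted p = 2.15e-11) for Fst, by 0.77 (SE 0.10) for both Fstl3 and Gdf11 (adjusted p = 3.49e-06 and 3.38e-06), by 0.35 (SE 0.12, adjusted p = 0.0346) for Inhbb and by 0.21 (SE 0.07, adjusted p = 0.031) for Fstl1. For Inhba the difference was -0.54 (SE 0.10, adjusted p = 0.000284). The calls for Inhbb and Fstl1 were each lost without any 1 of 7 of the 12 arrays (highest adjusted p 0.106 and 0.0892) and after centring each array on its median (0.0683 and 0.0997). That for Fstl1 was also lost without the array set (0.108) and in a fit on the compared groups alone (0.086). For Inhbb the 7 arrays were arrays 2 and 3 of wild-type and 1 and 3 of MuSK-null myoblasts, and arrays 1 and 3 of wild-type and 1 of MuSK-null myotubes. For Fstl1 they were arrays 1 and 2 of wild-type and 2 of MuSK-null myoblasts, and arrays 1 and 2 of the myotubes of both lines. For Inha the difference was 0.02 (95% confidence interval -0.19 to 0.22) and for Mstn -0.37 (-0.73 to -0.01, adjusted p = 0.122). The skeletal muscle markers changed with it: 7 of 8 rose more in MuSK-null cells (median difference 1.41), from the lower level of their myoblasts given above. Their part in the differences was not tested.

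**Figure D4:**
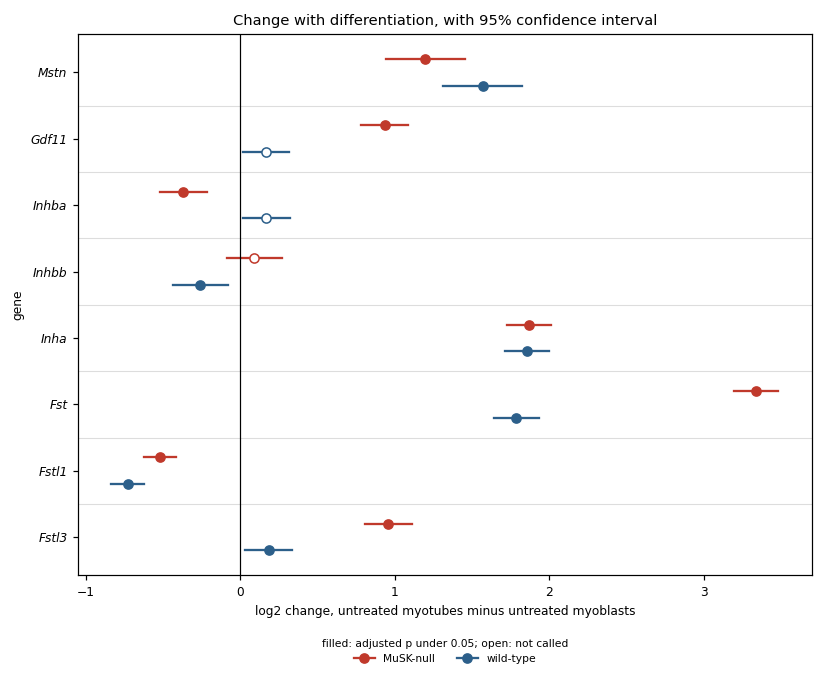
Log2 change with differentiation (untreated myotubes minus untreated myoblasts) of each gene in MuSK-null and wild-type cells, as points with 95% confidence intervals from the limma fit; filled points have an adjusted p under 0.05. Fst rises by 3.34 in MuSK-null and 1.79 in wild-type cells, Inha by 1.87 in MuSK-null and 1.85 in wild-type cells, and Fstl1 falls in both.

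The receptors of these ligands were read from a list of 8 genes, all measured. In the BMP4 responses 2 rose and 1 fell in MuSK-null myotubes, wild-type myotubes and MuSK-null myoblasts, and 1 rose and 1 fell in wild-type myoblasts, beside 8.42% to 11.3% of all genes called. The one that fell in all 4 was Tgfbr3, which encodes betaglycan, the inhibin co-receptor, by 0.67 and 0.43 in MuSK-null and wild-type myotubes and by 0.50 and 0.51 in MuSK-null and wild-type myoblasts. Inha thus rose and Tgfbr3 fell in the same 4 comparisons. Bambi, a pseudoreceptor that dampens signalling of the family, rose by 0.52 and 0.98 in MuSK-null and wild-type myotubes and by 1.52 and 1.66 in the myoblasts of the 2 lines. Acvr1b, a type I receptor of activins, rose by 0.38, 0.31 and 0.35 in MuSK-null myotubes, wild-type myotubes and MuSK-null myoblasts.

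Between the lines 4 of the 8 receptor genes were called, 4 higher and 0 lower in MuSK-null cells, in untreated myotubes and in untreated myoblasts alike, beside 37.4% and 31.3% of all genes. With BMP4 4 were called in each stage, 3 higher and 1 lower (Bambi, -0.60 in myotubes and -0.28 in myoblasts), beside 36.3% and 29.7%. Acvr2a, the activin type II receptor that also binds myostatin, gave 10.80, 10.86 and 10.73 in untreated MuSK-null myoblasts, against 9.03, 9.20 and 8.97 in wild-type ones. It was higher by 1.73 (adjusted p = 1.77e-13) there and by 0.70 (adjusted p = 8.13e-07) in untreated myotubes. Tgfbr1, a type I receptor used by myostatin and TGF-beta, was higher by 0.98 (adjusted p = 4.02e-11) in untreated MuSK-null myotubes. In untreated myoblasts too its group mean was higher, at 10.39 in MuSK-null and 9.30 in wild-type cells. So in untreated MuSK-null cells Acvr2a was higher in both stages while Mstn, Inhba and Inhbb were lower.

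Downstream of the receptors, 12 transducers of the Smad2/3 branch and their regulators were measured. Of these 3 rose and 1 fell with BMP4 in both kinds of myotubes and in MuSK-null myoblasts, and 4 rose and 1 fell in wild-type myoblasts, beside 8.42% to 11.3% of all genes called in these responses. Smad3, one of the 2 receptor-activated Smads of the branch, fell by 0.42 in MuSK-null and by 0.37 in wild-type myotubes and by 0.68 (adjusted p = 4.95e-09) in wild-type myoblasts. In wild-type myoblasts it gave 10.82, 10.83 and 10.81 with BMP4, against 11.49, 11.48 and 11.52 without, a gap wider than the spread between arrays. In MuSK-null myoblasts it gave 11.41, 11.50 and 11.43 with BMP4, against 11.46, 11.59 and 11.57 without, and was not called. The response of Smad3 in myoblasts differed between lines by 0.58 (adjusted p = 7.92e-05). Smad7, an inhibitory Smad that feeds back on both branches, rose by 1.85, 1.57, 1.40 and 1.86 in MuSK-null myotubes, wild-type myotubes, MuSK-null myoblasts and wild-type myoblasts.

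The list of Smad2/3 target genes was read from 10 measured genes. With BMP4, 7 rose in MuSK-null myotubes, 6 in wild-type myotubes, 6 in MuSK-null myoblasts and 8 in wild-type myoblasts, and 0 fell in any, beside 8.42% to 11.3% of all genes called. Their median changes were 0.33, 0.38, 0.50 and 0.57, beside -0.01, 0.02, 0.02 and 0.00 for all genes. Ccn2, a matricellular protein gene, rose by 0.86 in MuSK-null myotubes and by 1.24 and 1.30 in MuSK-null and wild-type myoblasts. In wild-type myotubes its group mean was 12.61 with BMP4 and 11.94 without. The list holds Smad7 and Skil, which are also in the list of transducers, and Smad7 and Junb are known to respond to BMP as well, so the list is not a readout of activin or myostatin signalling alone.

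Of 8 further proteins that bind myostatin or activins 7 were measured (all but Fbn1). The matrix proteoglycan genes Dcn and Fmod, whose products bind myostatin, were both higher in MuSK-null cells. Dcn, which is also one of the fibroblast markers above, was higher by 2.66 in untreated myotubes and by 2.30 in untreated myoblasts, and Fmod by 1.85 and 1.26. With BMP4 Fmod rose in all 4 settings, by 0.53 and 0.70 in MuSK-null and wild-type myotubes and by 1.29 and 1.51 in MuSK-null and wild-type myoblasts. Dcn fell by 0.45 in MuSK-null myotubes and by 0.90 and 0.34 in MuSK-null and wild-type myoblasts. Of 11 genes of precursor processing and latency, Ltbp4, which binds latent ligands in the matrix, was higher by 1.62 in untreated MuSK-null myotubes, and for Ltbp2 the difference there was -1.22. With BMP4 at most 1 of the 11 rose and at most 1 fell in any setting, beside 8.42% to 11.3% of all genes called, so this count says little about the 11. Of 13 other proteins with follistatin-like domains, Smoc2, a matrix protein, rose with BMP4 in all 4 settings, by 1.07 to 1.53. Of 8 measured ligands related to activins and nodal 0 were called with BMP4 in any setting, beside 8.42% to 11.3% of all genes. At that share a count of 0 says little about 8 genes. All group means of Inhbe, Lefty1 and Lefty2 lay below the lower quartile of gene means (6.34), and those of Nodal, Gdf3, Bmp3 and Gdf10 above it.

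**Figure D5:**
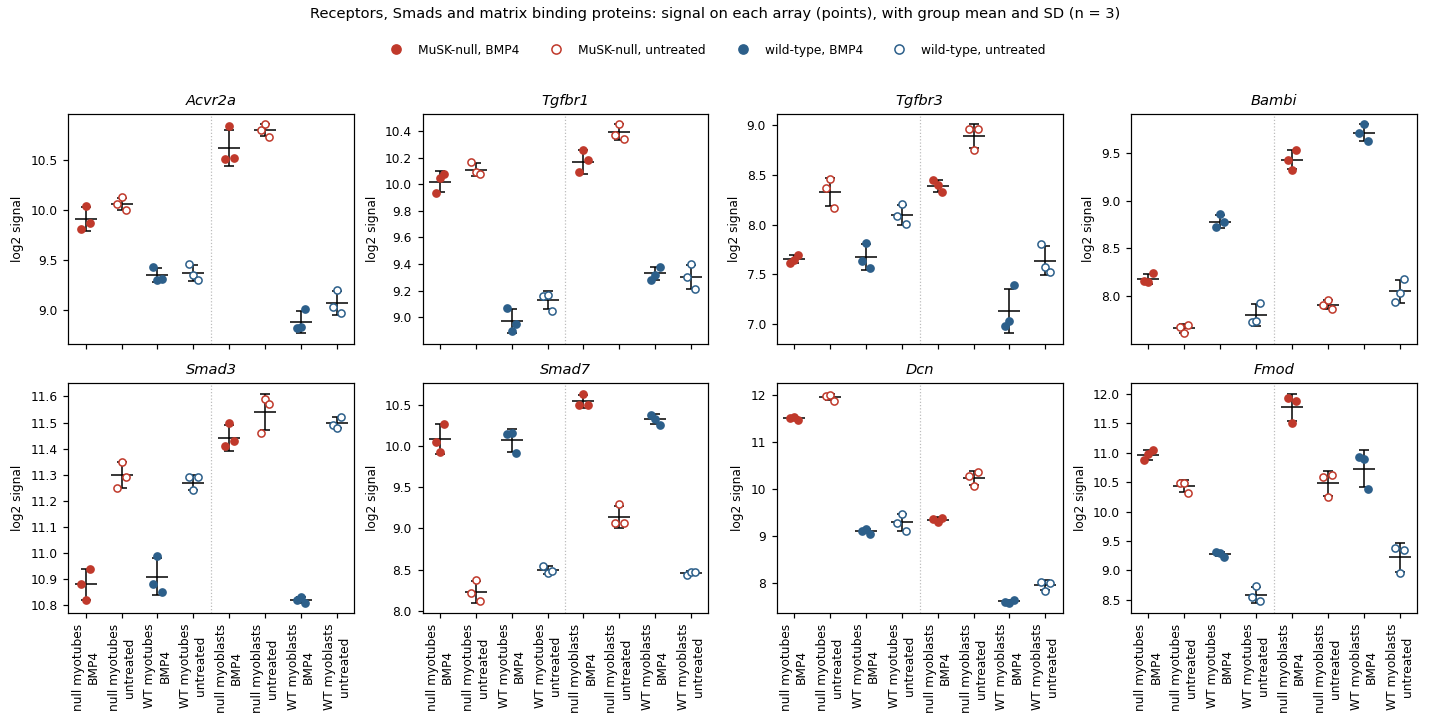
Log2 signal on each of the 24 arrays for 4 receptor genes (Acvr2a, Tgfbr1, Tgfbr3, Bambi), 2 Smads (Smad3, Smad7) and 2 matrix proteoglycans (Dcn, Fmod); points are arrays, filled for BMP4 and open for untreated, red for MuSK-null and blue for wild-type, bars give the mean and SD of 3 arrays, and each panel has its own axis. Acvr2a in untreated myoblasts averages 10.80 in MuSK-null and 9.07 in wild-type cells.

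The 8 genes were set against each other and against all other genes over the 24 arrays, as a description. The arrays share 8 group means, so these are patterns over 8 groups more than over 24 samples. Fst and Fstl3 had a Pearson r of 0.94, Fst and Inha 0.89, and Mstn and Inha 0.77. Fstl1 ran against Mstn (r = -0.92), Inha (-0.78) and Fst (-0.76), and Inhba and Inhbb had an r of 0.71. The 3 genes most like each were Jam2, Bcam and Map3k7cl for Mstn (r of 0.977 to 0.978), Rcan1, Nmrk2 and Dnajb9 for Inha (0.975 to 0.980), and Hoxa13, Dynap and Serpinf1 for Inhba (0.950 to 0.957). For Inhbb they were Mtap, Rnf130 and Cdkn2a (0.974 to 0.981), and for Gdf11 Lgmn, Asb15 and Sema6c (0.949 to 0.952). For Fst they were Ldb3, Dusp28 and Fabp3 (0.968 to 0.970), for Fstl1 Pax3, Clmp and Bcor (0.976 to 0.980), and for Fstl3 Plekha1, Mars2 and Hip1 (0.954 to 0.974).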

How the data were processed

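The deposited table holds 1 log2 value per probe set and array. How the authors corrected, summarised and normalized the probe signals was not given in the sources used; Affymetrix Expression Console and Partek are named, without versions, per the submitters' processing notes. Array medians lay between 7.38 and 7.50. Of 35556 rows, 21789 list 1 gene in the platform annotation, 1621 several and 12146 none. For 999 genes with several rows the one with the highest mean was kept, leaving 19938 genes.

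For each gene limma 3.58.1 (R 4.3.3) estimated 8 group means from the 24 arrays, leaving 16 residual degrees of freedom, and was tested on simulated data. P-values were adjusted by Benjamini-Hochberg across all 19938 genes, with calls at an adjusted p under 0.05. The genes and lists were chosen with earlier results of these data known. Named beyond the 8 genes are up to 2 called genes per list, comparison and direction, the 3 genes most like each of the 8, Musk and the marker lists. The text uses fewer.

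Replicate numbers were checked for pairing through correlations of deviations from group means. They paired untreated MuSK-null with BMP4-treated MuSK-null myoblasts (0.12 to 0.46), untreated MuSK-null with untreated wild-type myoblasts (0.22 to 0.42) and BMP4-treated MuSK-null with untreated wild-type myoblasts (0.21 to 0.51, a pair not compared here), not the groups at large. Alternatives were leaving out single arrays, a minimum fold change of 1.5, replicate blocks, fitting compared groups alone, moderation with trend and robust settings, dropping dim genes, every probe set tested separately, and quantile normalization or centring of arrays on their medians. The array set as a block or left out, and the replicate block on the compared groups, were added after seeing the data.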

Additional observations from a re-analysis of the deposited data

Results flagged for a closer look

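Responses or changes that differed between lines or stages by the interaction test are collected here as differences of log2 changes, each described with its error above. The BMP4 response in myotubes differed between MuSK-null and wild-type cells (MuSK-null minus wild-type) by 0.74 for Inha, 0.93 for Fst and -0.29 for Fstl1, and that in myoblasts by 0.73 for Mstn, -0.67 for Inhba and 0.55 for Fst. The change with differentiation differed (MuSK-null minus wild-type) by 0.77 for Gdf11, -0.54 for Inhba, 0.35 for Inhbb, 1.55 for Fst, 0.21 for Fstl1 and 0.77 for Fstl3.

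The BMP4 response differed between stages (myotubes minus myoblasts) in MuSK-null cells by -0.60 for Mstn, -0.46 for Inhbb, 1.45 for Inha and -0.39 for Fst, and in wild-type cells by 0.71 for Mstn, -0.60 for Inhba, 0.40 for Inha and -0.76 for Fst. The stage difference itself differed (MuSK-null minus wild-type) by -1.31 for Mstn, 0.81 for Inhba and 1.05 for Inha. Serum deprivation, stated for treated myoblasts alone, moves with the stage comparisons, and its part in them was not tested.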

How the results depend on the processing

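Of the 83 called results of the 8 genes in 16 comparisons, 67 stayed called without any single array, and no called log2 change moved by over 1.5 times or turned its sign under any alternative. A replicate block over all arrays changed none of the 128 calls, and with the compared groups alone it left 4 genes called for BMP4 in MuSK-null myoblasts and 7 between the lines in untreated myoblasts. A fold change of at least 1.5 left 3 of 6 calls for BMP4 in MuSK-null myotubes, 1 of 4 in wild-type myotubes, 1 of 4 in MuSK-null myoblasts and 2 of 5 in wild-type myoblasts. It left 4 of 8 between lines in BMP4-treated myotubes, 4 of 7 in BMP4-treated myoblasts, 3 of 6 for the difference of differentiation and 2 of 4 for the stage difference in MuSK-null cells. For that stage difference median centring left 1, and leaving out single arrays gave 2 to 4. The stage difference in wild-type cells kept 2 of 4 without the array set and 2 to 4 without single arrays, and BMP4 in MuSK-null myotubes 3 to 6. A fit on the compared groups lost 5 calls, quantile normalization lost 4 and gained 5, median centring lost 5 and gained 3, and the array set as a block lost 0 and gained 6. Counts over all genes moved by over 1.5 times with a fold minimum of 1.5 in 15 comparisons. For BMP4 in MuSK-null myoblasts 1115 genes were called with the compared groups alone (1678 otherwise). Blocking on the array set called 1011 genes for the line difference of responses in myotubes (640 otherwise), 745 in myoblasts (477), 1028 for the stage difference in wild-type cells (682) and 783 for the three-way difference (498). The fold minimum left 546 and 356 genes for BMP4 in MuSK-null and wild-type myotubes, 418 and 552 in MuSK-null and wild-type myoblasts, 1678 to 2297 between lines, 3279 and 3560 for differentiation in MuSK-null and wild-type cells, and 236 to 2567 for 5 of the differences between responses or changes.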

Other observations

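Skeletal muscle markers moved beside these genes within the myoblasts as well. With BMP4, 4 of the 8 markers fell and 0 rose in MuSK-null myoblasts, beside 8.42% of all genes called in either direction. In wild-type myoblasts 3 fell and 1 rose, beside 11%. In MuSK-null myotubes 1 fell and 2 rose, beside 11.3%. In wild-type myotubes 0 fell and 1 rose, which is near the share of all genes there, 8.77%. Myog, a regulator of myoblast differentiation, gave 9.27, 9.18 and 9.40 in BMP4-treated MuSK-null myoblasts, against 10.03, 10.00 and 9.84 in untreated ones. In wild-type myoblasts it gave 11.41, 11.52 and 11.58 with BMP4, against 11.91, 12.03 and 11.91 without. The values of neither line overlapped between treatments. In these myoblasts Fst rose in both lines, whereas Myog and Fst both rose with differentiation.

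Among the genes beside the 8, Fbn2, which encodes a fibrillin of the matrix, had one of the larger line differences of the binding protein list. It gave 8.03, 8.19 and 8.10 in untreated MuSK-null myotubes, against 6.69, 6.43 and 6.45 in wild-type ones, and 6.77, 6.80 and 6.77 in untreated MuSK-null myoblasts, against 6.75, 6.77 and 6.61 in wild-type ones. Its change with differentiation differed between lines by 1.51 (adjusted p = 1.92e-11).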
